A study of Mus musculus with 6 samples.

Results

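The genes described are 10 members of the transforming growth factor beta (TGF-beta) pathway: the ligands Tgfb1, Tgfb2 and Tgfb3, the receptors Tgfbr1, Tgfbr2 and Tgfbr3, the signal transducer Smad3, and the target genes Klf10, Tgfbi and Skil. They were taken by symbol from a list of the pathway, and no measured value enters that rule, though earlier results of these data were known when the list was made. They are represented by 21 of the 22626 probe sets that are no controls, taking each probe set to which the platform annotation gives 1 symbol. Lung total RNA of 6 female mice of strain B6.V-Lepob/J, aged about 1 month, was hybridised to Affymetrix Mouse 430A arrays, with 1 animal per array. All 6 mice, controls included, are ob/ob, so they make no working leptin, a hormone secreted by fat that curbs feeding. The 2 groups were leptin-treated (3 arrays) and saline-treated (3 arrays), and the sources used here do not give dose, route or duration. The comparison asks what differs once the missing hormone is given. No lean or wild-type group was analysed here.

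TGF-beta ligands are secreted as latent complexes that are stored in the extracellular matrix until they are activated. Active ligand binds Tgfbr2, which recruits and phosphorylates Tgfbr1, and Tgfbr1 then phosphorylates Smad2 and Smad3, which enter the nucleus with Smad4 and regulate transcription. In the lung the pathway is known for its part in alveolar development, matrix deposition and fibrosis.

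One array was kept apart. Saline replicate 1 correlated with the other 5 arrays at 0.438 to 0.447 (Pearson's r of log2 intensity over probe sets, none of them an independent replicate), whereas those 5 correlated with each other at 0.973 to 0.978. Its 10th percentile of intensity was 57.0 against 16.3 to 19.2. Over the 64 control probe sets, the median ratio of this array to the mean of the other 5 was 13.2. Defining markers of lung were present on the other 5 arrays, where 7 alveolar type II genes summed to between 98976 and 112923 intensity units, and on saline replicate 1 they summed to 14876. The 6 macrophage genes summed to 99880 on saline replicate 1 and to between 8186 and 10425 on the others, and 1 Csf1r probe set (93803 against 2950 to 3384) made up most of that sum. This array is also called saline mouse 1. Comparisons are given first as 3 leptin against 2 saline arrays, and those over all 6 arrays follow.

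Without saline replicate 1, no member passed the test of leptin against saline lungs. Log2 differences (leptin minus saline, on log2 of intensity plus 22.0) ran from -0.36 for Skil to 0.65 for a dim Tgfbr1 probe set. Of 21 probe sets, 20 were bright enough to be tested, and 10 were higher and 10 lower with leptin, where 50.3% of all tested probe sets were higher. The median difference was 0.02 for the members and 0.001 for all probe sets tested, and the median size of a difference, sign aside, was 0.16 against 0.12. In limma's moderated test with Benjamini-Hochberg adjustment over 15838 probe sets, 0 of the 20 passed a threshold of 0.05, against 0.0442% (7 probe sets) of all. At an unadjusted p under 0.05 there were 2 of 20, against 4.60% of all. Of these, Tgfbr1 1420894_at was bright enough to be tested only with all 3 leptin arrays, its higher group, kept. With the replicate number as a block there was 1. In that fit leptin replicate 1, whose number no other kept array shares, adds nothing to the differences. Leaving out 1 leptin array gave between 1 and 4, with 4 without leptin replicate 3 (Klf10, Tgfbr2 1425444_a_at, Tgfbi 1437463_x_at and Skil 1452214_at), and 0 of them passed the adjusted threshold. The share over all probe sets in those fits is not given here, so these counts have no background to be judged by. The rule stated by the series (p under 0.05 with a 1.5-fold change that also holds in 6 or more of 9 pairwise comparisons, here in 4 of 6) was met by 0 members, against 0.492% of all.

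The precision of this comparison bounds what it can show. The standard error of a member's log2 difference had a median of 0.18, as it had over all probe sets, and ran from 0.12 to 0.37. For 8 of the 20 tested probe sets the 95% interval of the difference lay inside a 1.5-fold change in either direction, which is 0.58 on the log2 scale. For the other 12 a change of that size in at least 1 direction remains within the interval. The p-values measure the spread between these animals, and with 3 against 2 arrays their number limits the precision.

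**Figure D1:**
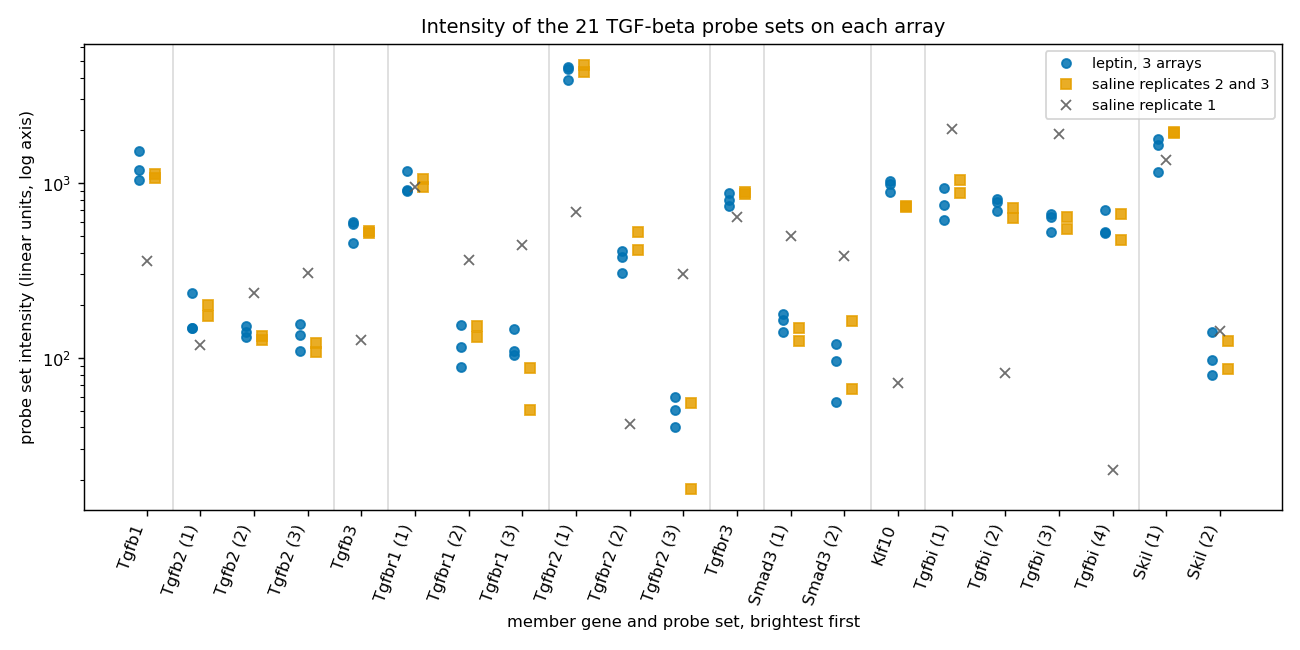
Intensity of each of the 21 TGF-beta probe sets (log axis, linear intensity units) on the 3 leptin arrays, in saline mice 2 and 3, and on saline replicate 1; probe sets of a gene are numbered from the brightest. Leptin and saline points of the 5 arrays lie close together for most probe sets, whereas saline replicate 1 lies below all 5 others in 9 probe sets and above them in 10.

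Among the ligands, Tgfb1, the isoform best known from immune and fibrotic responses, has 1 probe set (1420653_at, Entrez Gene 21803). Its intensity was 1523, 1041 and 1184 on leptin replicates 1, 2 and 3 and 1068 and 1129 in saline mice 2 and 3, and saline mouse 1 gave 358. The 2 saline values lay within the range of the leptin values, and leptin replicate 1 was the highest of the 5. The log2 difference was 0.17 ± 0.17 (SE, n = 3 and 2, 95% interval -0.21 to 0.54, limma adjusted p = 1.00). Over all 6 arrays it was 0.68 ± 0.48 (limma adjusted p = 0.715).

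Tgfb3, an isoform with known roles in palate and lung development, was read by 1 probe set (1417455_at, Entrez Gene 21809). It gave 602, 451 and 583 under leptin, against 516 and 530.0 in saline mice 2 and 3, and saline mouse 1 gave 126. Again both saline values fell inside the leptin range, with the highest and the lowest of the 5 values both from leptin arrays. The log2 difference was 0.05 ± 0.17 (SE, 95% interval -0.32 to 0.41, limma adjusted p = 1.00), and 0.67 ± 0.55 over all 6 arrays.

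Tgfb2, the third isoform, was dim in all of its 3 probe sets. The brightest, 1423250_a_at, read 149, 147 and 234 under leptin, against 173 and 201 in saline mice 2 and 3, and saline mouse 1 gave 119. The second, 1450922_a_at, read 153, 141 and 132 with leptin, 134 and 126 with saline, and 234 on saline replicate 1. The third, 1450923_at, read 157, 109 and 136 with leptin, 108 and 121 with saline, and 305 on saline replicate 1. Groups overlapped in each, and the 3 probe sets did not share a sign, with log2 differences of -0.10 ± 0.24, 0.11 ± 0.22 and 0.18 ± 0.24 (SE). With saline mouse 1 included each sign was the opposite one, at 0.09, -0.14 and -0.24.

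For both signalling receptors the brightest probe set lay close to 0, at log2 differences of -0.06 and -0.02, and dimmer ones lay farther from it. Tgfbr2, the ligand-binding type II receptor (Entrez Gene 21813), was read by a bright probe set, 1426397_at, at 4587, 3898 and 4476 under leptin, against 4709 and 4307 in saline mice 2 and 3, and saline mouse 1 gave 679. The groups overlapped, and the log2 difference of -0.06 ± 0.12 (SE, 95% interval -0.33 to 0.20) had the smallest error of any member. A second Tgfbr2 probe set, 1425444_a_at, read 375, 304 and 409 with leptin and 525 and 415 with saline, and saline mouse 1 gave 41.9. All 3 leptin values were below both saline values there, by a narrow margin between 409 and 415, and the log2 difference was -0.35 ± 0.18 (SE), with a limma adjusted p of 1.00. It was -0.19 without saline replicate 2 and -0.52 without saline replicate 3. With saline mouse 1 included both turned positive, to 0.83 ± 0.77 and 0.62 ± 0.82. The third Tgfbr2 probe set, 1422019_at, was below the filter on low values in both fits and was not tested. It read 50.5, 60.0 and 40.4 with leptin, 17.9 and 55.2 with saline and 302 on saline replicate 1. Fitted with no filter, its log2 difference was 0.37 ± 0.33 (SE).

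Tgfbr1, the type I receptor kinase that phosphorylates Smad2 and Smad3 (Entrez Gene 21812), also has 3 probe sets. The brightest, 1420895_at, read 893, 909 and 1176 under leptin, against 945 and 1059 in saline mice 2 and 3, and saline replicate 1 fell among them at 949. It showed no separation of the groups, at a log2 difference of -0.02 ± 0.16 (SE, 95% interval -0.37 to 0.33) on 5 arrays and 0.003 ± 0.25 on 6. The dim probe set 1420894_at read 147, 104 and 109 with leptin and 87.9 and 50.5 with saline, and saline mouse 1 gave 442. All leptin values lay above both saline values, and the log2 difference of 0.65 ± 0.29 (SE, 95% interval 0.01 to 1.30) was the largest of any member, at an unadjusted limma p of 0.0485 and an adjusted p of 1.00. It reached 1.5-fold in 4 of 6 pairwise comparisons and was 1.57-fold in all, but missed the series' rule on its p. The log2 difference was 0.35 without saline replicate 3 and 0.95 without saline replicate 2. On 5 arrays this probe set passed the filter on low values only with all 3 leptin arrays, its higher group, kept. With any 1 leptin array left out, or with a 50% filter, it was not tested. With all 6 arrays the sign turned, at -0.14 ± 0.71. The remaining probe set, 1420893_a_at, went the other way, at 115, 154 and 88.8 with leptin against 152 and 131 with saline, a log2 difference of -0.23 ± 0.26 (SE). It read 362 on saline replicate 1, and the 6-array difference was -0.64.

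Tgfbr3, or betaglycan, the co-receptor that presents ligand to Tgfbr2 (1425620_at, Entrez Gene 21814), read 879, 796 and 740.1 under leptin, against 890.3 and 868 in saline mice 2 and 3, and saline mouse 1 gave 637. Leptin replicate 1 lay between the 2 saline values, so the groups overlapped. The log2 difference was -0.13 ± 0.14 (SE, 95% interval -0.44 to 0.19) on 5 arrays and 0.02 ± 0.25 on 6.

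Smad3, the transducer (Entrez Gene 17127), was dim in both of its probe sets. The first, 1450472_s_at, read 179, 165 and 141 under leptin, against 148 and 125 in saline mice 2 and 3, and the second, 1450471_at, read 119.8, 96.3 and 56.3 with leptin and 163 and 66.8 with saline. Saline replicate 1 was above all of these, at 495 and 381. The log2 differences had opposite signs, 0.21 ± 0.22 and -0.23 ± 0.37 (SE), and the second error was the largest of any tested member. Neither probe set separated the groups.

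Klf10, also known as TIEG1, is a Krüppel-like transcription factor that TGF-beta induces early, and its single probe set (1416029_at, Entrez Gene 21847) had the smallest unadjusted p of the members. Its intensity was 883, 990.0 and 1031 under leptin, against 724 and 733 in saline mice 2 and 3. All 3 leptin values were above both saline values, and saline replicate 1 was far below all of them at 72.2. Mean intensity was 968 ± 76.5 under leptin (SD, n = 3) and 729 ± 6.72 in the saline pair (SD, n = 2), a 1.32-fold ratio on the scale of the fit and a log2 difference of 0.40 ± 0.14 (SE, 95% interval 0.09 to 0.71). The unadjusted limma p was 0.0167 and the adjusted p was 1.00, so Klf10 did not pass the test. The difference lay between 0.35 and 0.46 when any 1 further array was left out, and no pairwise comparison reached 1.5-fold. Over all 6 arrays it was 1.39 ± 0.82 (limma adjusted p = 0.715), a value over 3 times as large that rests on saline replicate 1.

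Skil, which encodes SnoN, a co-repressor that binds SMAD proteins and is itself induced by the pathway, went the other way in its bright probe set (1452214_at, Entrez Gene 20482). Intensity was 1151, 1774 and 1655 under leptin, against 1949 and 1929 in saline mice 2 and 3, and saline mouse 1 gave 1349. All leptin values were below both of those saline values, with leptin replicate 1 the lowest of the 5. The log2 difference was -0.36 ± 0.18 (SE, 95% interval -0.76 to 0.03, limma adjusted p = 1.00), and -0.18 without leptin replicate 1. On 6 arrays it was -0.19 ± 0.31, where saline replicate 1 fell inside the leptin range. The second Skil probe set, 1422054_a_at, was dim and did not differ beyond its spread, at 96.9, 141 and 80.3 with leptin and 125 and 85.8 with saline, a log2 difference of -0.004 ± 0.29 (SE).

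Tgfbi, a secreted matrix protein named for its induction by TGF-beta (Entrez Gene 21810), was read by 4 probe sets that gave no common direction. The brightest, 1437463_x_at, read 743, 615 and 929 under leptin, against 1043 and 879.8 in saline mice 2 and 3. Its log2 difference was -0.34 ± 0.18 (SE), with a limma adjusted p of 1.00. Probe set 1448123_s_at read 692, 809 and 782 with leptin and 631 and 723 with saline, and 1456250_x_at read 523, 636 and 667 with leptin and 545 and 637 with saline. The last, 1415871_at, read 514, 696 and 526 with leptin and 661 and 473 with saline. These 3 were at log2 differences of 0.16 ± 0.15, 0.04 ± 0.16 and 0.03 ± 0.19 (SE). Groups overlapped in all 4. On saline replicate 1 these probe sets split widely, at 2043 for 1437463_x_at and 1895 for 1456250_x_at but 82.1 for 1448123_s_at and 22.9 for 1415871_at, while on the other 5 arrays all 4 read between 473 and 1043. With that array included the log2 differences of the x_at pair were -0.70 and -0.51, and those of the other two 1.08 and 1.27, with both probe sets whose names end in x_at (a suffix that marks probes which may also match other transcripts) on the negative side.

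Probe sets of a gene often differed in sign. Of the 6 genes with more than 1 probe set, the log2 differences without saline replicate 1 had mixed signs over the tested probe sets in 4 (Tgfb2, Tgfbr1, Smad3 and Tgfbi). In Skil both were below 0, as were both tested ones of Tgfbr2, whose probe set below the filter was above 0. All leptin values lay above both saline values in 2 of 20 tested probe sets (Klf10 and Tgfbr1 1420894_at), against 9.92% of all tested probe sets. Of these, Tgfbr1 1420894_at passed the filter only with all 3 leptin arrays, its higher group, kept. All lay below in 2 of 20 (Skil 1452214_at and Tgfbr2 1425444_a_at), against 9.66% of all. Both shares were near the background. Over the 5 arrays the highest value was a median 1.46 times the lowest in the 21 member probe sets, and up to 3.35 times. The median was 1.41 times over all probe sets tested.

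**Figure D2:**
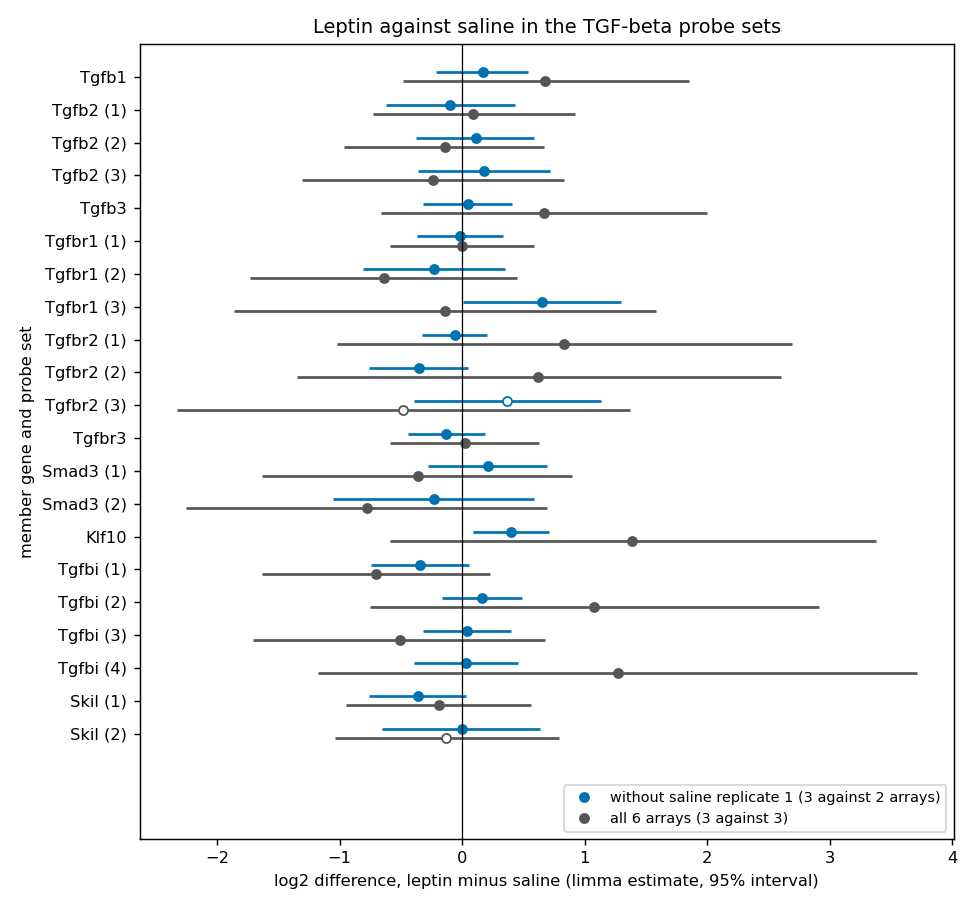
Log2 difference, leptin minus saline, with its 95% interval from limma for each of the 21 probe sets, without saline replicate 1 (blue) and over all 6 arrays (grey); open circles were below the filter and come from the fit without one. On 5 arrays only the intervals of Klf10 (0.09 to 0.71) and the third Tgfbr1 probe set (lower end 0.01) exclude 0, before any adjustment, and on 6 arrays every interval includes 0.

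With all 6 arrays, the comparison as the series designed it, 19 member probe sets passed the filter, 10 higher and 9 lower with leptin (51.3% of all tested probe sets were higher). In limma, 0 of the 19 passed the adjusted threshold and 0 were at an unadjusted p under 0.05, where 0% and 0.385% of all did. The series' rule was met by 0 members, against 0.202% of all. Standard errors had a median of 0.50 and ran up to 1.01, and in 0 of the 19 did the interval lie inside a 1.5-fold change. The groups did not overlap in 1 of the 19, Klf10, with leptin above, against 5.00% of all probe sets, and in 0 with leptin below, against 4.10%. The sign of the difference changed between 5 and 6 arrays in 11 of the 21 probe sets.

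How the members read on saline replicate 1 went with their brightness. Of the 20 tested, 9 were below all 5 other arrays there, 9 above and 2 among them, against 47.0% below and 41.9% above for all probe sets tested. Of the 11 members with a mean of at least 500 intensity units on the other arrays, 7 were below and 2, both Tgfbi x_at probe sets, were above, as were 68.0% and 22.7% of all probe sets that bright. Of the 9 members under 300, 1 was below and 8 were above, and of all tested probe sets that dim 25.5% were below and 61.6% above. The lowest ratios to the mean of the other 5 arrays were in Tgfbi 1415871_at (-4.65 on the log2 scale), Klf10 (-3.59) and Tgfbr2 1425444_a_at (-3.28), and the highest was in the dim Tgfbr2 1422019_at (2.75). Over all 6 arrays the log2 differences of the bright Tgfb1 and Tgfb3 were above 0, and those of both dim Smad3 probe sets, at -0.36 and -0.78, were below.

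**Figure D3:**
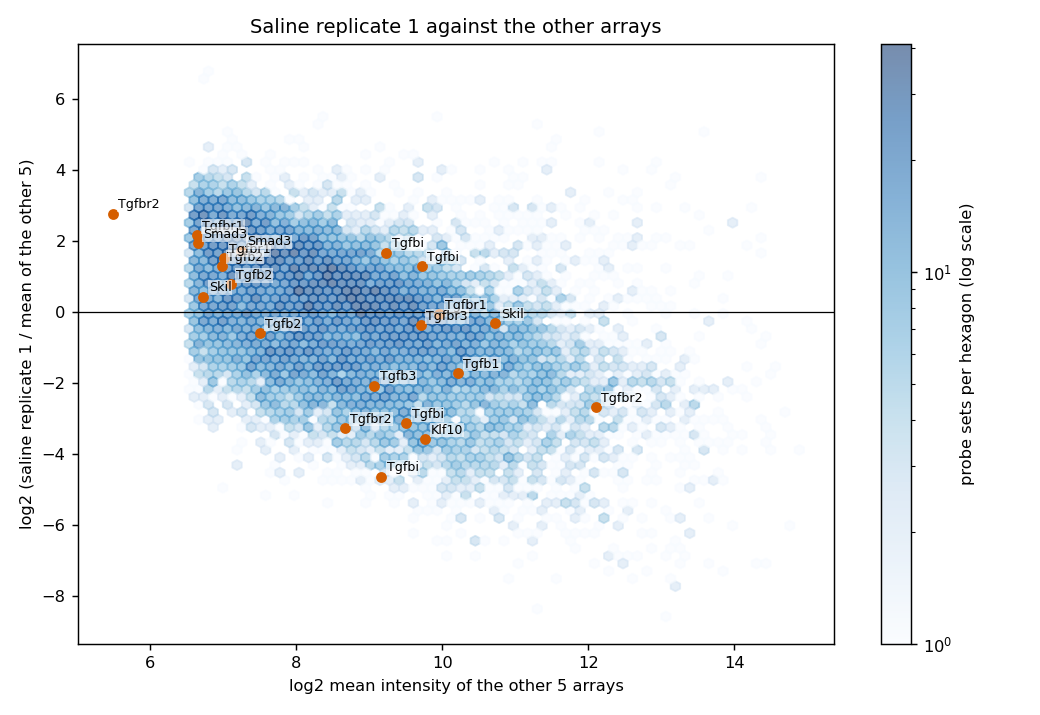
Log2 ratio of saline replicate 1 to the mean of the other 5 arrays against the log2 mean of those 5, for the 15838 tested probe sets (blue hexagons, shaded by number) and the 21 TGF-beta probe sets (orange, named by gene). Dim members lie mostly above 0 and bright ones mostly below, as does the cloud of all probe sets, with Tgfbi between -4.65 and 1.66 in its 4 probe sets.

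Other genes of the pathway were taken from lists by role and represented by their brightest tested probe set, without saline replicate 1. Of 68 genes listed, 60 had a probe set and 59 were tested, of which 38 (64.4%) were higher and 21 lower with leptin, with a median log2 difference of 0.04. Pmepa1, Ltbp2 and Smad7 each stand in 2 of the lists. None passed the adjusted limma threshold, in their 103 tested probe sets or in these 59, and 6 of the 103 (5.83%, against 4.60% of all) were at an unadjusted p under 0.05. That count was 16 with the replicate block, under which the count over all probe sets rose from 728 to 1142. With any 1 leptin array left out it was 9 or 10, and the share over all probe sets in those fits is not given here. Over all 6 arrays 0 of 103 passed and 1 was at an unadjusted p under 0.05 (0.385% of all). That was a Ccn1 probe set, named after its values were seen, for a matricellular protein among the targets, which read 322, 396 and 386 with leptin and 232, 216 and 198.5 in saline mice 1, 2 and 3. Its log2 difference was 0.71 on 6 arrays (limma adjusted p = 0.715) and 0.76 on 5, where the brightest Ccn1 probe set was at 0.02. All leptin values lay above both saline values in 10 of the 59 genes (16.9%, against 9.92% of all probe sets) and below in 6 (10.2%, against 9.66%).

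Genes of ligand storage and activation were higher in 10 of 12, with a median of 0.08 and 0 called. Ltbp2, a matrix protein of the latent TGF-beta binding family, read 1279, 1184 and 1301 with leptin and 1141 and 927 with saline, at 0.28 ± 0.14 (log2 difference ± SE), and saline mouse 1 gave 323. On 6 arrays it was at 0.81. Ltbp3, of the same family, which binds latent ligand, was at 0.26 ± 0.17, and its other probe set was at -0.05, while on 6 arrays the first was at -0.38. Co-receptors and receptor regulators were higher in 4 of 6 (median 0.04). Fkbp1a, which holds the type I receptor inactive, was at 0.20 ± 0.12, and Bambi, a pseudoreceptor that blocks signalling, was at -0.17 ± 0.15. Their 6-array values were 0.15 and 0.65, so that of Bambi turned.

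SMADs and their partners were lower in 5 of 7 (median -0.04). Smad4, the shared partner of Smad2 and Smad3, read 1614, 1611 and 1877 with leptin and 2379 and 1934 with saline, and saline mouse 1 gave 328. Its log2 difference was -0.34 ± 0.14 (SE), with a limma adjusted p of 1.00, and 0.54 over all 6 arrays. On 5 arrays it was -0.19 without saline replicate 2 and -0.48 without saline replicate 3. Its other probe sets were at 0.18 and -0.27. Trim33, a ubiquitin ligase acting on the SMAD complex, was at -0.23 ± 0.12, and at -0.12 on 6 arrays. Inhibitors were higher in 5 of 9 (median 0.02). Fst, follistatin, which binds activins, read 211, 253 and 225 with leptin and 437 and 371 with saline, and saline mouse 1 gave 262. Its log2 difference was -0.76 ± 0.17 (SE), with a limma adjusted p of 0.413, and -0.57 ± 0.31 over all 6 arrays. Nedd4l, a ubiquitin ligase that targets activated SMADs, was at 0.28 ± 0.13, and at 0.49 on 6 arrays.

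Targets were higher in 19 of 28 (67.9%, median 0.07), again with 0 called, and 2 were at an unadjusted p under 0.05. Those were Col1a1, a chain of type I collagen, and Vim, the intermediate filament of mesenchymal cells. Col1a1 read 2148, 2424 and 2045 with leptin and 1425 and 1463 with saline, and saline mouse 1 gave 83.3. Vim read 9207, 9166 and 9499 with leptin and 7221 and 5931 with saline, and saline mouse 1 gave 1545. In both, all leptin values were above both saline values, at 0.60 ± 0.13 and 0.50 ± 0.12 (log2 difference ± SE), but neither passed the threshold (limma adjusted p = 0.327 and 0.410). They were picked for the smallest p of this list in the same arrays, so their separation is no independent finding. The 6-array values were 1.87 ± 1.01 for Col1a1 and 1.19 ± 0.68 for Vim. In 8 of the 28 targets (28.6%, against 9.92% of all probe sets) all leptin values were above both saline values: Acta2, Col1a1, Postn, Fstl3, Tnc, Tagln, Ltbp2 and Vim, named after their values were seen. The background counts single probe sets, whereas each target enters by its brightest tested one. These genes were read in the same animals, and the list was made with earlier results of these data known. They are therefore not separate observations. In 1 of the 28, Lox, all were below both saline values (9.66% of all probe sets), at a log2 difference of -0.06 ± 0.11 (SE). In 6 of the 28 all leptin values were also above all 3 saline values (5.00% of all probe sets). Saline replicate 1 was below all 5 other arrays in 47.0% of all tested probe sets, so it is a weak check on the higher side.

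Marker genes of fibroblasts were also brighter under leptin than in saline mice 2 and 3, as were most genes of several other lists. Higher were 7 of 7 neutrophil, 6 of 6 macrophage, 6 of 7 endothelial, 5 of 5 B cell and 4 of 5 T cell genes. Lower were 5 of 6 platelet and 5 of 6 cardiac genes. Of all tested probe sets 50.3% were higher. Summed neutrophil genes overlapped between the groups, at 2990 to 6578 with leptin against 2500 to 5121 with saline. So did endothelial genes (18196 to 20468 against 17953 to 18304) and T cell genes (504 to 678 against 368 to 515). The summed intensity of 7 fibroblast genes was 26639 to 28618 with leptin and 18022 to 22460 in saline mice 2 and 3, with 6 of 7 higher, and that of 6 smooth muscle genes was 3100 to 3798 against 2823 to 2893, with 5 of 6 higher. Their part in the Col1a1, Vim or Klf10 values was not tested. In whole-lung RNA fewer cells of a type and less RNA per cell cannot be told apart. Of 14 cell type lists, 6 did not overlap between the groups. Of all tested probe sets, 9.92% lay higher without overlap and 9.66% lower, though a sum over genes is not a single probe set. Besides those 2 lists, the B cell list was on the higher side (1154 to 1569 with leptin against 953 to 1074). On the lower side were the erythroid (3415 to 4651 against 8077 to 10125, 3 of 4 genes lower), alveolar type II (98976 to 111444 against 112888 to 112923, 5 of 7 lower) and club and ciliated cell lists (58229 to 64884 against 65006 to 65585, 3 of 5 lower). Platelet genes, markers of a known carrier of TGF-beta1, summed to 3633 to 4237 with leptin and 4104 to 4138 with saline, and macrophage genes to 8650 to 10425 against 8186 to 9940. No marker gene was listed at 0 on any array.

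**Figure D4:**
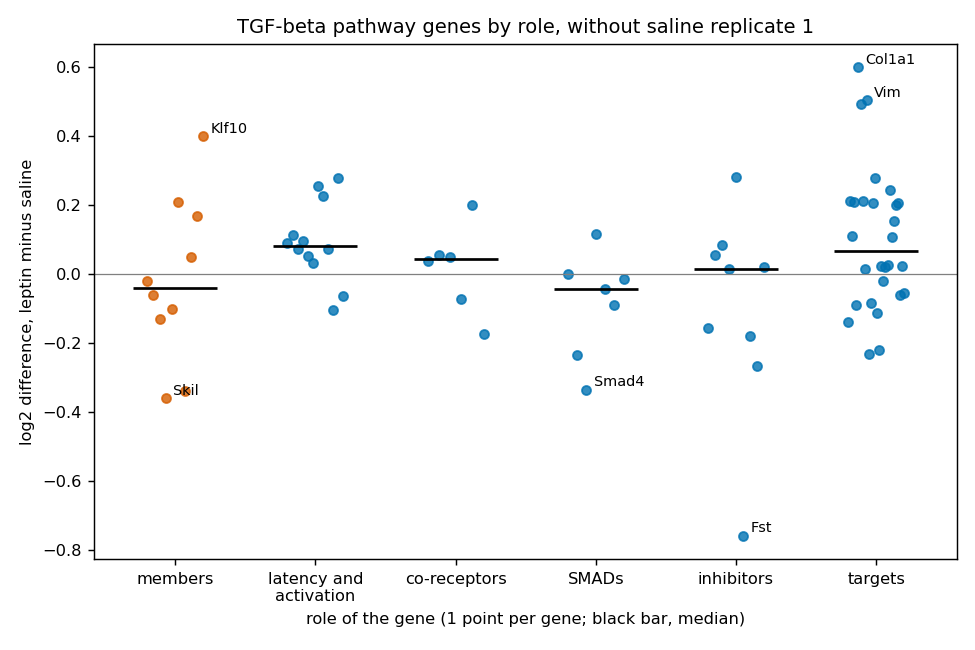
Log2 difference, leptin minus saline, without saline replicate 1, for the 10 members (orange, brightest tested probe set of each) and for 5 role lists of other pathway genes (blue, 1 point per gene; black bars, medians). Role medians lie between -0.04 and 0.08, and the points farthest from 0 are Col1a1 at 0.60, Vim at 0.50 and Fst at -0.76, none of which passed the adjusted threshold.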

How the data were processed

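The deposited table holds linear probe set intensity values, scaled by the authors or their software so that the trimmed mean (2% left out at each end) lies between 500.10 and 500.14 on each array; the software is not given in the sources used here. The 64 control probe sets were left out, and 20380 of 22626 probe sets had 1 symbol. Before taking log2, 22.0 (the 10th percentile over the table) was added to each intensity, so changes of dim probe sets are understated. The dimmest 30% were filtered out, and limma 3.58.1 in R 4.3.3 (trend, two-sided) was run without and with saline replicate 1, adjusting over 15838 probe sets. The series does not name its test, so a 2-sample comparison with pooled variance on the log2 values stood in for it. All probe sets of the 10 members were named, and of each other role list the 2 genes with the smallest p. The members and lists were chosen with earlier results of these data known.

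The labels do not say that replicate numbers pair animals. Group means were subtracted with saline replicate 1, the array kept apart, included. Arrays with the same number then correlated at 0.103 to 0.144, against -0.147 to 0.0491 for different numbers. Deviations from a group mean cancel out, so these correlations are tied to each other, and the array kept apart enters every saline deviation. These correlations therefore cannot decide whether the numbers pair the samples. A fit with the number as a block was run as an alternative.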

Additional observations from a re-analysis of the deposited data

How the results depend on the processing

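The settings tried were pseudocounts of 1 and 79.9, quantile normalization, scaling to a common median, a filter at 50% or none, a replicate block, no variance trend, array weights (6 arrays), an adjusted threshold of 0.10 and leaving out each array. Under each of them 0 member and 0 other pathway probe sets passed the threshold, and 0 members met the series' rule. The smallest adjusted p of a member was 0.624 without saline replicate 1 (Klf10 with the replicate block) and 0.492 over all 6 arrays. The block moved the count of all probe sets at an unadjusted p under 0.05 from 728 to 1142 and changed no call. Klf10 stayed positive in each setting on 5 and on 6 arrays, and its unadjusted p was up to 0.076 on 5 arrays and, from all 6, 0.138 and up to 0.239 with 1 array left out. Members at an unadjusted p under 0.05 numbered 1 or 2 under the other settings on 5 arrays. On 6 arrays they numbered 0, except 3 with array weights (8 of the other pathway probe sets) and 2 without saline replicate 1, which is the 5-array fit. The share over all probe sets with array weights is not given here. The 6-array median of the members was 0.003 and became 0.65 with the 50% filter, which leaves out the dim members. A common median moved the median of all probe sets from 0.02 to 0.17 over 6 arrays, with 61.1% instead of 51.3% higher, and quantile normalization moved it to 0.10.

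No value that changed sign was past the threshold. On 5 arrays the replicate block turned Tgfb3 to -0.03, Tgfbr1 1420895_at to 0.05 and Skil 1422054_a_at to 0.04. On 6 arrays, array weights (0.0257 for saline replicate 1 against 1.64 to 2.98) gave values near those of 5 arrays: Tgfb2 at -0.08, 0.09 and 0.17, Tgfbr1 at -0.006 and 0.56, Tgfbr2 at -0.07 and -0.39, Tgfbr3 at -0.13, Smad3 1450472_s_at at 0.17, Tgfbi 1456250_x_at at 0.06, Ltbp3 at 0.29, Bambi at -0.14 and Smad4 at -0.35. Quantile normalization gave Tgfbr1 1420895_at -0.01, and a common median gave Tgfbr1 1420894_at 0.01 and Trim33 0.03.

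Leaving out 1 array at a time also turned some signs. The ranges cover only the fits in which a probe set passed the filter on low values. On 5 arrays Smad3 1450471_at did not pass it without leptin replicate 1 or without saline replicate 2. With all 6 arrays Skil 1422054_a_at did not pass it, and its log2 difference in the fit with no filter was -0.13. On 5 arrays the lowest and highest values were -0.29 and 0.004 for Tgfb2 1423250_a_at, -0.03 and 0.17 for Tgfb3, -0.15 and 0.06 for Tgfbr1 1420895_at, -0.13 and 0.009 for Tgfbr2 1426397_at, -0.76 and 0.01 for Smad3 1450471_at, -0.07 and 0.15 for Tgfbi 1456250_x_at, -0.20 and 0.27 for Tgfbi 1415871_at, and -0.23 and 0.22 for Skil 1422054_a_at. Where a saline array was left out there, the 1 remaining was assumed to vary like the others. On 6 arrays they were -0.10 and 0.23, -0.29 and 0.11, and -0.49 and 0.18 for the Tgfb2 probe sets, -0.12 and 0.07 for Tgfbr1 1420895_at, -0.69 and 0.65 for Tgfbr1 1420894_at, -0.06 and 1.31 for Tgfbr2 1426397_at, -0.35 and 1.19 for Tgfbr2 1425444_a_at, -0.13 and 0.11 for Tgfbr3, -0.70 and 0.21 for Smad3 1450472_s_at, -0.84 and 0.04 for Tgfbi 1456250_x_at, -0.004 and 0.02 for Skil 1422054_a_at, -0.78 and 0.26 for Ltbp3, -0.17 and 1.09 for Bambi, and -0.34 and 1.05 for Smad4. Without a turn of sign, but by over 1.5 times, the 5-array value moved to between 0.02 and 0.29 for Tgfb1, -0.40 and -0.07 for Tgfbr1 1420893_a_at, and -0.49 and -0.20 for Tgfbi 1437463_x_at. In the 6-array ranges listed, except that of Tgfbr1 1420895_at, 1 end is the value without saline replicate 1, which is the 5-array fit. The cause of the turns of sign was not tested beyond the array left out.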
